A study of Mus musculus with 4 samples.

Results

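The AP-1 transcription factors of mouse T-helper 17 (Th17) cells are described here through 10 genes, the BATF genes Batf, Batf2 and Batf3, the JUN genes Jun, Junb and Jund, and the FOS genes Fos, Fosb, Fosl1 and Fosl2. They were chosen by name, from 50600 genes counted, and all 10 were found once in the files. RNA was sequenced in 4 libraries of 1 group, biological replicates 1 to 4 of primary T-helper 17 cells from the mouse strain C57BL/6NJ. No agent, genotype or comparison group is given in the labels, age is unknown and sex was not collected. All 4 libraries carry 1 donor label but separate biosamples, and the headers of the files name each library with the mark 72 hr and the word Sorted. The labels do not say whether separate animals or cultures were used, so any p-value measures the spread between these samples alone.

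AP-1 factors are basic leucine zipper (bZIP) proteins. A zipper joins a pair of them and the basic region ahead of it grips DNA. FOS and BATF proteins need a JUN partner, whereas JUN proteins can also pair among themselves. FOS, FOSB and JUN proteins carry activation domains, FOSL1 and FOSL2 lack that of FOS, and BATF and BATF3 are little more than a bZIP domain and work with interferon regulatory factors such as IRF4 on composite DNA elements. In Th17 cells BATF is required for the lineage, JUNB is known as its partner there, and FOSL2 (also called FRA2) is known to limit the programme. Fos, Fosb, Jun and Junb are classic immediate early genes, which stimulation induces rapidly.

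The stretch that makes the 10 a family is the basic region. It is shown for 6 members, a pair from each subfamily, as the coding DNA of 16 codons (48 bases, 5′ to 3′, from GENCODE mouse release 21 transcripts, GRCm38). The capitals mark the 4 codons that encode the same amino acid in all 10 members. The stretch was located by an amino acid pattern that fixes most of these positions, so their identity was largely set by the search. This also adds to the shared bases given below.
Batf: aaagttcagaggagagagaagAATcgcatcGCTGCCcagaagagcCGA
Batf3: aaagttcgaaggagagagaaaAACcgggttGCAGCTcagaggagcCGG
Junb: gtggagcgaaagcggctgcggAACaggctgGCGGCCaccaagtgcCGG
Jund: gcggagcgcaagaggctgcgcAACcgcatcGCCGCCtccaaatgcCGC
Fosl2: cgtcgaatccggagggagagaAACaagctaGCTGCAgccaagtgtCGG
Fos: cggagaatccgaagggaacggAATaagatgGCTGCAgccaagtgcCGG
These stretches lie within coding exons at chr12:85689289-85689336 (plus strand, exon 2 of Batf), chr1:191100749-191100796 (plus, exon 2 of Batf3), chr8:84977581-84977628 (minus, exon 1 of Junb), chr8:70699850-70699897 (plus, exon 1 of Jund), chr5:32150445-32150492 (plus, exon 3 of Fosl2) and chr12:85475616-85475663 (plus, exon 3 of Fos). Over these 48 bases, pairs of members from different subfamilies shared 37.5% to 58.3% of bases (33 pairs). Pairs within the BATF, FOS and JUN subfamilies shared 62.5% to 77.1%, 64.6% to 79.2% and 72.9% to 77.1%. The coding lengths set Batf and Batf3 apart from the other members, but do not separate the JUN genes from the FOS genes. Batf and Batf3 encode 125 and 118 amino acids, while the JUN genes encode 334 to 344 and the FOS genes 273 to 380. Batf2, at 277, is close in length to Fosl1 at 273.

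Library totals ran from 9382661 counts in replicate 3 to 34542693 in replicate 1. Replicates 1 and 2 had Xist at 177 and 193 TPM (counts divided by exonic length and scaled to a fixed total in each library), against 2.15 and 0.598 TPM in replicates 3 and 4. The Y-linked gene Ddx3y took the reverse split, at 0.165 and 0.133 against 59.7 and 55.2 TPM, so the 4 libraries do not come from 1 animal, although all carry 1 donor label. Within replicates 1 and 2, and within 3 and 4, the spread may still be technical. Among markers of the labelled cell type, Il17f, Il17a and Trac were the highest. All 9 T-cell and Th17 identity genes stood above 1 TPM in every library. Of 6 dendritic cell markers none did, their summed level was 0.284 to 0.418 TPM, and Clec9a and Cd209a had 0 counts. The 5 macrophage and monocyte markers summed to 0.958 to 2.67 TPM, most of it Cd14, with Fcgr1 at 0 counts. The 5 B-cell markers summed to 0.241 to 0.686 TPM with Ms4a1 at 0 counts, and the CD8 and natural killer list to 11.3 to 15.4 TPM, nearly all Cd8b1, with Ncr1 and Klrb1c at 0 counts. With 0 counts seen, as many as 3 remain possible in that library.

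Of the 10 AP-1 genes, 8 had at least 1 TPM in every library, beside 47.6% of protein-coding genes and 23.0% of all genes. The exceptions were Fosb, which fell just below that level in replicates 2 and 3, and Batf2. The mean levels ran in the order Junb, Jund, Batf, Fosl2, Jun, Batf3, Fosl1, Fos, Fosb and Batf2, as the plot of levels by gene shows. Their median was 43.9 TPM, beside 25.3 TPM over the 12156 genes that passed the count filter of the spread test below.

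**Figure D1:**
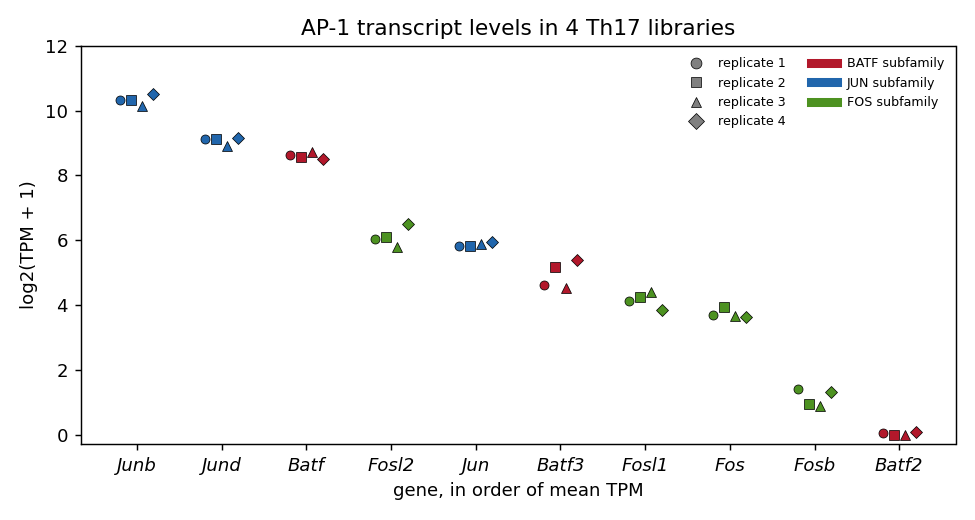
Level of each AP-1 gene in each of the 4 libraries, as log2(TPM + 1) on the vertical axis, with genes in order of mean TPM and colours for the subfamilies. Junb, Jund and Batf lie apart from the rest at the top, Fosl2 and Jun share a range, and Batf2 lies at or near 0.

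The JUN genes encode the partners that FOS and BATF proteins need. Junb (ENSMUSG00000052837.6, chr8:84974484-84978718, minus strand, mm10) had 1280.0, 1276, 1130.0 and 1456 TPM in replicates 1 to 4, a mean of 1286 ± 133 (SD, n = 4). It ranked 76th of all protein-coding genes. Jund, the JUN gene usually expressed without a stimulus, had 558, 562, 476 and 572 TPM, or 542 ± 44.6 (ENSMUSG00000071076.6, chr8:70698949-70700616, plus strand). Replicate 3 was the lowest library for both. Jun itself, the founding member, had 55.8, 55.1, 57.5 and 61.1 TPM, or 57.4 ± 2.68 (ENSMUSG00000052684.4, chr4:95049034-95052222, minus strand). The ranges of the 3 JUN genes did not overlap. Within a library Junb stood 19.6-fold to 23.8-fold above Jun and 2.27-fold to 2.54-fold above Jund. Jun was also the member with the smallest spread, with a coefficient of variation (CV) of 4.44% where counting error alone would give 3.09%.

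Neighbouring genes bear on few of these counts. Gm11175, an antisense gene whose 877 exonic bases all lie opposite the Jund exon, had 3 to 11 counts a library, against 2262 to 9767 for Jund. No member shared exonic bases with another gene on its own strand, where reads would have been dropped. Prdx2 overlaps Junb by 173 bases on the opposite strand, which stranded counting keeps apart.

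Among the BATF genes the transcripts were nearly all Batf. Batf (ENSMUSG00000034266.5, chr12:85686669-85709087, plus strand), the gene needed for the Th17 fate, had 392, 378, 421 and 365 TPM, or 389 ± 24.0 (SD, n = 4). It took 89.9% to 94.99% of the subfamily's TPM. Batf3 (ENSMUSG00000026630.9, chr1:191097847-191108945, plus strand), best known for dendritic cells, had 23.6, 35.1, 22.2 and 40.7 TPM, or 30.4 ± 8.98. Replicates 2 and 4 lay above replicates 1 and 3, beyond counting error of 6.45% but short of the spread threshold below. The dendritic cell markers summed to 0.338, 0.418, 0.285 and 0.284 TPM in replicates 1 to 4, and the part of such cells in the Batf3 levels was not tested.

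Batf2 (ENSMUSG00000039699.13, chr19:6140983-6172476, plus strand), a member induced in interferon-treated macrophages, held 1 count in replicate 1, 1 in replicate 4 and none in the other two. Those counts equal 0.0378 TPM (95% exact Poisson interval 0.000957 to 0.211) and 0.0452 TPM (0.00115 to 0.252). In replicates 2 and 3 a floor of 3 counts is 0.164 and 0.417 TPM, and the upper 95% exact limits of the 0 counts are 0.202 and 0.513 TPM. Per base of exon, the pooled counts of Batf were 14179-fold those of Batf2, with a 95% exact interval of 3924 to 117093 that covers counting error only. Fewer cells with a transcript and less RNA per cell cannot be told apart in such bulk libraries.

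The FOS genes were low as a group, and Fosl2 led them. Fosl2 (ENSMUSG00000029135.10, chr5:32135801-32157842, plus strand) had 65.3, 67.7, 54.2 and 89.2 TPM, or 69.1 ± 14.7 (SD, n = 4), which was 62.6% to 77.2% of the FOS sum. Replicate 4 was high and replicate 3 low. Fosl1, the other FOS-related antigen gene, had 16.4, 18.0, 19.9 and 13.4 TPM, or 16.9 ± 2.75 (ENSMUSG00000024912.5, chr19:5447703-5455945, plus strand). Here the extremes were reversed, with replicate 3 highest and replicate 4 lowest. Fos, the immediate early gene that names the group, had 11.8, 14.4, 11.6 and 11.4 TPM, or 12.3 ± 1.38 (ENSMUSG00000021250.13, chr12:85473890-85477273, plus strand). Replicate 2 stood above the other 3, which were nearly equal. Fosb (ENSMUSG00000003545.3, chr7:19302696-19310051, minus strand) had 1.66, 0.907, 0.843 and 1.46 TPM on 109, 41, 15 and 80 counts. Replicates 1 and 4 were high and replicates 2 and 3 low, with a CV of 32.7% where counting error alone would give 16.8%.

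Within each library the levels of the members were then compared in pairs, as differences of log2(TPM + 1). Of 45 pairs, 44 kept 1 order in all 4 libraries. Each of those had p = 0.125 in an exact sign-flip permutation test (two-sided, n = 4), the smallest that 4 libraries allow, and 0.128 after Benjamini-Hochberg adjustment over the 45, so none could reach 0.05. The exception was Fosl2 and Jun. Fosl2 was higher by 0.24 ± 0.26 (SD, n = 4) in 3 of 4 libraries and lower by 0.09 in replicate 3 (exact sign-flip p = 0.25). The closest pairs that kept their order were Fosl1 over Fos, by 0.42 ± 0.23, and Jund over Batf, by 0.48 ± 0.21. Batf3 exceeded Fosl1 by 0.78 ± 0.60, but by 0.15 in replicate 3 and 1.53 in replicate 4.

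The scale matters for this order, because the exonic lengths run from 955 bases for Batf to 9680 for Fosl2. In CPM (counts scaled to a fixed total, with no length correction), Fosl2 had 204 ± 41.8 and Batf 113 ± 7.87, and the difference of Batf over Fosl2 turned from 2.50 ± 0.38 to -0.82 ± 0.38 log2 units. The files' lengths also join all annotated exons of a gene. Batf3 has 1597 bases in this count but 801 in its principal coding transcript, and Fosb 6243 and 3782. With the principal lengths, an alternative chosen after seeing the data, Batf3 had 42.5 ± 12.5 TPM and Jun 40.2 ± 1.90, and Jun no longer exceeded Batf3 (-0.033 ± 0.39 log2 units). On that scale Fosl1 had 10.9 ± 1.76 TPM and exceeded Fos by 0.15 ± 0.22 log2 units.

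Summed by subfamily, the JUN genes held 78.8%, 78.6%, 75.9% and 80.0% of the 10-gene TPM in replicates 1 to 4. The BATF genes held 17.3%, 17.2%, 20.2% and 15.5%, and the FOS genes 3.96%, 4.19%, 3.95% and 4.43%. The order JUN, BATF, FOS was the same in every library, as the plot of subfamily shares shows. JUN transcripts exceeded BATF and FOS transcripts together 3.71-fold, 3.68-fold, 3.14-fold and 4.01-fold. BATF transcripts exceeded FOS transcripts 4.37-fold, 4.09-fold, 5.11-fold and 3.51-fold. Without length correction the BATF share was 8.15% and the FOS share 14.0%, so the order of BATF over FOS holds for TPM and not for reads. These are transcript sums and carry no test, and protein was not measured.

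**Figure D2:**
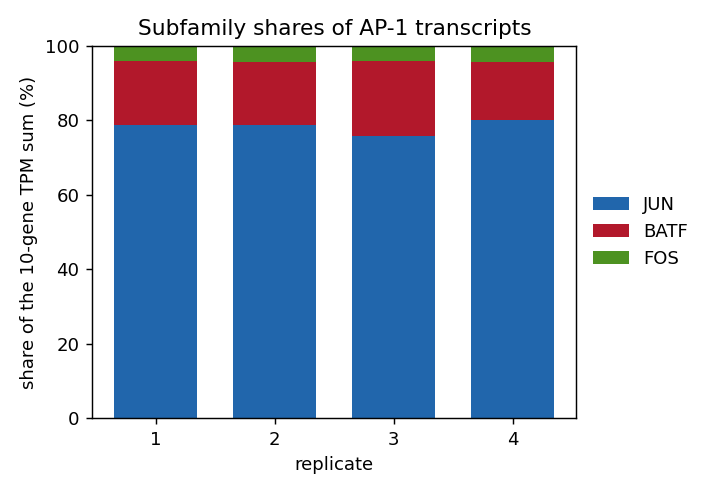
Share of the summed TPM of the 10 AP-1 genes held by the JUN, BATF and FOS genes in each of the 4 libraries, in percent. JUN genes hold 75.9% to 80.0%, BATF genes 15.5% to 20.2% and FOS genes 3.95% to 4.43%.

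The spread of each gene between the 4 libraries was tested over all genes with edgeR, as the quasi-dispersion of the gene over the trend for its abundance. Of the 10 members, 9 passed the count filter, and Batf2 did not. None of the 9 passed an adjusted p of 0.05, beside 0.00823% of the 12156 genes tested, and DESeq2 marked none as a dispersion outlier (0.847% of genes). Fosl2 and Batf3 had an unadjusted p under 0.05 in the edgeR test, 2 of 9 members beside 4.90% of all genes. Fosl2 had 192, 200.3, 162 and 262 normalised CPM (scaled by edgeR's trimmed mean of M-values, TMM) and a CV of 20.5%, with adjusted p = 0.748 in the edgeR test. Its adjusted p ran from 0.0487 to 0.986 over the alternatives. The lowest came with no count filter, where Fosl2 was the 1 of 10 members called (0.592% of 21299 genes). Without replicate 4, Fosb joined Fosl2 and Batf3 at an unadjusted p under 0.05 in the edgeR test, 3 of 9 members beside 5.17% of genes, and none passed the adjusted threshold. Batf3 had 11.47, 17.1, 10.9 and 19.7 CPM, a CV of 29.0% and adjusted p = 0.875 in the edgeR test, with a range of 0.182 to 0.988 over the alternatives. For the other 7 members no alternative gave an adjusted p below 0.951 in the edgeR test.

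Which library was highest differed between members. By CPM, replicate 4 was the highest library and replicate 3 the lowest for Junb, Jund, Fosl2 and Batf3, 4 of 9 members beside 20.5% of the genes tested. For Jund and Batf3 an extreme was a near tie. Jund had 289 CPM in replicate 4 and 286 in replicate 2, with a counting error of 1.42%. Batf3 had 10.9 CPM in replicate 3 and 11.47 in replicate 1, with a counting error of 6.45%. Batf and Fosl1 were the reverse, 2 of 9 beside 20.6%. Batf ran at 114, 110, 124 and 105 CPM and Junb at 895, 898, 803 and 1015. Replicate 3 was also the library with the fewest counts, and the part of depth in these patterns was not tested. Over all genes, replicate 4 had a mean chi-square per gene of 15.0 to 20.6 against each other library, where the other pairs had 3.50 to 7.48. This measure also grows with depth, so pairs with replicate 3 read low, and the values do not rank the libraries. The part of replicate 4 in these patterns was likewise not tested. Along the split seen in Xist, replicates 1 and 2 both lay below replicates 3 and 4 for Jun and both above them for Fos in TPM, and no other member separated them. No test of that split was made.

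**Figure D3:**
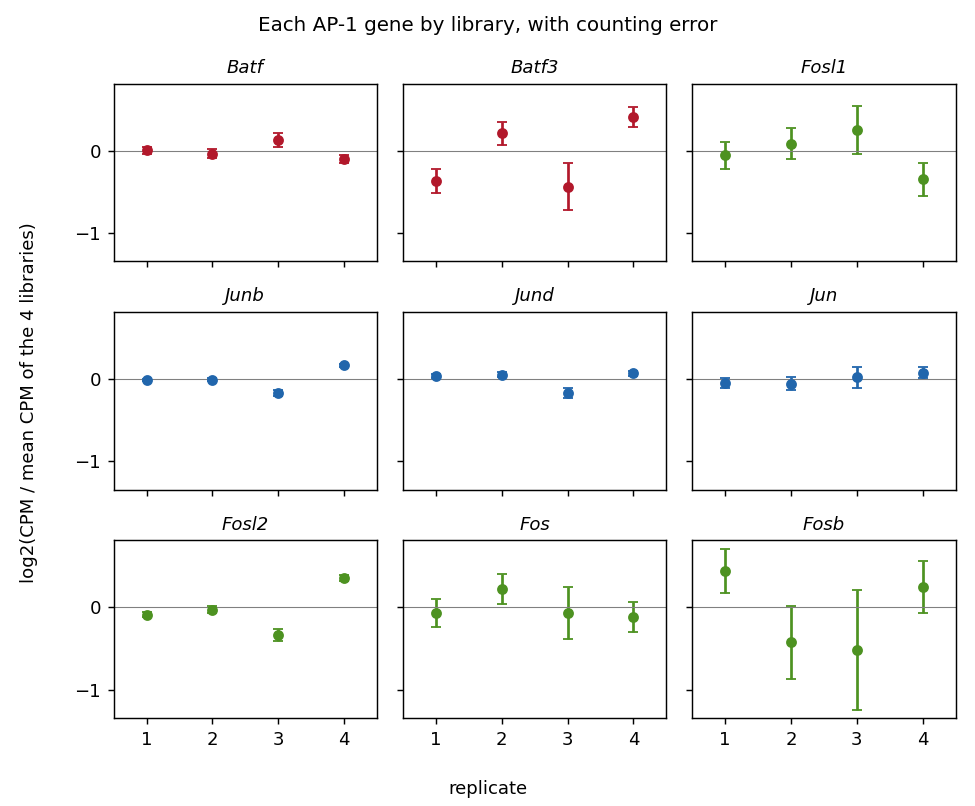
Log2 ratio of normalised CPM to the mean of the 4 libraries for 9 AP-1 genes, by replicate. Bars are approximate 95% counting intervals. Batf, Batf3, Junb, Jund and Fosl2 leave the zero line by more than their bars in both replicates 3 and 4, Batf3 and Fosl2 the farthest, while Jun stays close to it and Fosb has wide bars.

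The genes nearest to each subfamily's leading member across the 4 libraries were found among 11068 other protein-coding genes, by Euclidean distance of centred log2 CPM. For Batf they were Ccna2 (cyclin A2), Zcchc9 and Sfpq, at distances of 0.0026, 0.0047 and 0.0122. Ccna2 had 364, 354, 397 and 338 CPM. For Junb they were Vamp8, Gm2a and Zswim8, at 0.0150, 0.0172 and 0.0184, and Vamp8 had 57.7, 58.7, 52.4 and 65.9 CPM. For Fosl2 they were Ero1l, an oxidase of the endoplasmic reticulum, then Tecpr1 and H2afv, at 0.0407, 0.0455 and 0.0479. Ero1l had 210, 211, 176 and 278 CPM. With 4 libraries and this many genes, close profiles are common, and these describe the pattern only.

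Fos and Batf are neighbours. They lie on the plus strand of chromosome 12 in a span of 235 kb (chr12:85473890-85709087), in which the files list Fos, Jdp2 and Batf and no other gene. Jdp2 encodes a further bZIP protein that dimerises with JUN and represses its targets. The 3 neighbours differed widely in level. Jdp2 had 1.67, 2.94, 1.87 and 3.76 TPM, or 2.56 ± 0.975 (SD, n = 4), against 12.3 for Fos on one side and 389 for Batf on the other. The ranges of the 3 over the libraries did not overlap.

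The promoters of both neighbours and of Jun are shown because they held a match to a loose form of the cAMP response element (CRE), to which AP-1 and related dimers bind. Jund held one too and is not shown, since its RefSeq start lies apart from its start in the files. The sequences are from the RefSeq table of GRCm38.p6 and end where the gene of the files begins, which for Batf is ahead of the RefSeq start, so its stretch is shorter. They run 5′ to 3′ along the gene, with matches in capitals, at chr12:85473640-85473889 for Fos, chr12:85686470-85686668 for Batf and chr4:95052223-95052472 for Jun (minus strand).
Fos: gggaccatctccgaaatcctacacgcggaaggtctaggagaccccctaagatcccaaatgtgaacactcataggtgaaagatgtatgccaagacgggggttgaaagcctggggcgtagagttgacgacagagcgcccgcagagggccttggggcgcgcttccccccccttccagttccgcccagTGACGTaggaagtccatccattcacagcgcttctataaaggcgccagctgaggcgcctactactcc
Batf: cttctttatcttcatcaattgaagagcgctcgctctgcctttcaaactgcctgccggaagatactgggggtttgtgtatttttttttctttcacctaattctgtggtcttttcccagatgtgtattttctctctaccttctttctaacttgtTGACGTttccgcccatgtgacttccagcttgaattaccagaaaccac
Jun: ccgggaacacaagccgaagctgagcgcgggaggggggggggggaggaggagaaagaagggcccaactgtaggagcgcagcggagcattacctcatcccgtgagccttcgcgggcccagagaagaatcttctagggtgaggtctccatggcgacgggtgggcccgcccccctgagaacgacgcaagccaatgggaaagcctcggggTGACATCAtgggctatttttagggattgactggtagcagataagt
Windows of 250 bases before the RefSeq start were searched on both strands, and 8 members had one. The AP-1 site TGANTCA was in none of the 8 and in 6.75% of all 32851 windows, and the CRE TGACGTCA in none and in 1.55%. TGANNTCA, which includes the CRE, was in 2 of 8 (Jun and Jund) and in 11.9% of all windows. TGACGT, the left part of the CRE, was in 2 of 8 (Fos and Batf) and in 6.47%. The match in Fos lies 66 to 61 bases before the RefSeq start, that in Batf 98 to 93 and that in Jun 45 to 38. The last pair of patterns was chosen after the sequences were seen. Binding was not measured here, and a match is a description of letters.

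Against other bZIP genes that pair with AP-1 proteins or share their sites, Junb was the highest of 27, and Jund and Batf were in places 3 and 4. All 17 other bZIP genes reported reached 1 TPM in every library, and their median was 37.0 TPM. Atf4, a regulator of the amino acid response, stood between Junb and Jund at 829 ± 32.4 TPM (SD, n = 4). After Batf came Bach2, a repressor at AP-1 sites, at 120.2 ± 4.31 TPM and Maf, a factor of the Th17 programme, at 119 ± 4.13 TPM, above Fosl2 and Jun. None of the 17 tested passed the spread threshold, 3 had an unadjusted p under 0.05 in the edgeR test (4.90% of all genes), and DESeq2 marked 2 as dispersion outliers (0.847%).

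**Figure D4:**
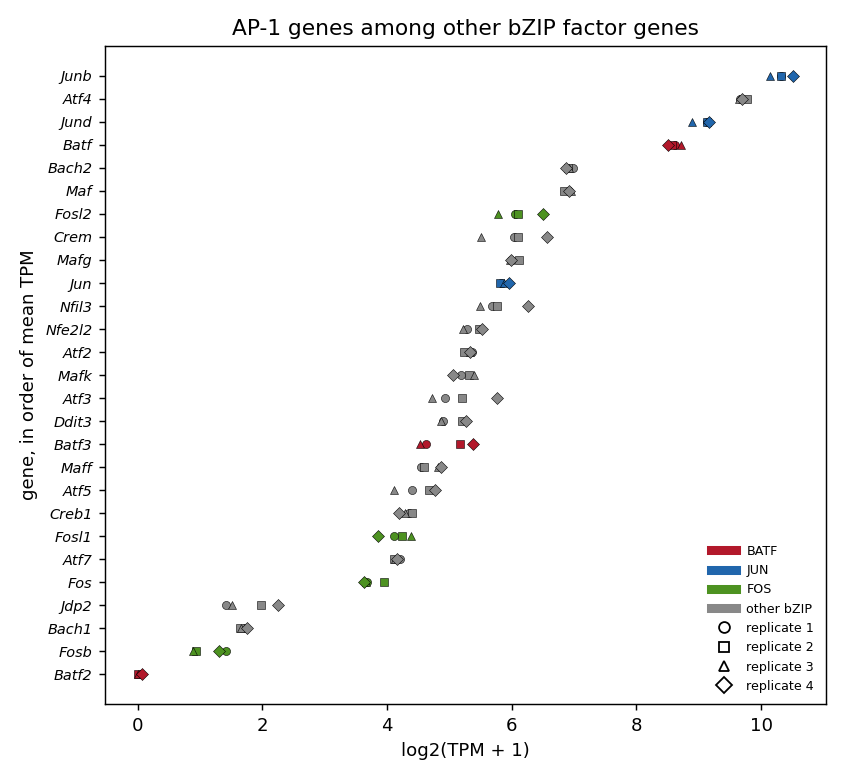
Levels of the 10 AP-1 genes and 17 other bZIP genes in each library, as log2(TPM + 1), in order of mean TPM. Junb, Jund and Batf are at ranks 1, 3 and 4, and Fos, Fosb and Batf2 are near the bottom.

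All 6 genes for factors that bind beside AP-1 had at least 1 TPM in every library. Irf4, the partner of BATF on composite elements, had 686, 691, 709 and 704 TPM, so its transcripts exceeded those of Batf 1.75-fold, 1.83-fold, 1.69-fold and 1.93-fold. Irf8, which can take the same place, had 36.1 ± 3.86 TPM (SD, n = 4), and Batf exceeded it 10.1-fold to 11.46-fold. Nfatc1, Nfatc2 and Nfatc3, whose proteins bind with FOS and JUN dimers, had 115 ± 4.17, 49.0 ± 2.04 and 57.4 ± 3.81 TPM. Stat3, which acts with BATF in Th17 cells, had 210 ± 13.5 TPM. None of these 6 passed the spread threshold or had an unadjusted p under 0.05 in the edgeR test, DESeq2 marked 0, and Irf4 had a CV of 2.09%.

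Upstream, 18 of 19 genes of the MAP kinase cascades that act on AP-1 reached 1 TPM in every library, and the list median was 78.2 TPM. The highest were the kinase kinase genes Map2k3 at 178 ± 15.2 and Map2k1 at 164 ± 21.3 TPM, and Mapk14, which encodes a p38 kinase, at 152 ± 5.31 TPM (SD, n = 4). Among the genes for JUN amino-terminal kinases, singled out after their values were seen, Mapk9 had 31.6 ± 0.733 TPM, Mapk8 14.1 ± 0.836 TPM and Mapk10, the form known from neurons, a lone count over all libraries. Of 9 genes for factors that bind FOS and JUN promoters, 8 had at least 1 TPM in every library. Elk3, Srf and Mef2d led with 155 ± 12.9, 88.9 ± 5.28 and 44.99 ± 2.01 TPM, and Mef2c was the exception. All 10 genes of AP-1 protein turnover and AU-rich mRNA decay had at least 1 TPM in every library, led by Cops5 at 114 ± 3.22, Zfp36l2 at 112 ± 3.39 and Zfp36l1 at 100.5 ± 9.68 TPM. In these 3 lists no gene of the 18, 8 and 10 tested passed the spread threshold, and 2, 0 and 1 had an unadjusted p under 0.05 in the edgeR test (4.90% of all genes). DESeq2 marked 0 in each.

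The other immediate early genes give a setting for Fos and Fosb. Of 20, 19 reached 1 TPM in every library, Klf2 being the exception, and the list median was 60.5 TPM. Ier2, Klf6 and Nr4a1 led with 369 ± 19.5, 338 ± 20.9 and 289 ± 71.9 TPM (SD, n = 4), all above Fos at 12.3 and below Junb at 1286 TPM. None of the 19 tested passed the spread threshold, 5 had an unadjusted p under 0.05 in the edgeR test (4.90% of all genes), and DESeq2 marked 3 (0.847%). In this list 10 of 19 genes had their highest level in replicate 4 and their lowest in replicate 3, as Junb, Jund, Fosl2 and Batf3 did (20.5% of all genes tested), and 2 had the reverse.

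All 12 listed T-cell genes known to need BATF or to carry AP-1 sites reached 1 TPM in every library, and Il17f, Il17a and Ctla4 were the highest. None passed the spread threshold, although 6 of 12 had an unadjusted p under 0.05 in the edgeR test (4.90% of all genes) and DESeq2 marked 1 (0.847%). By library, 5 of 12 had their highest level in replicate 3 and their lowest in replicate 4, as Batf and Fosl1 did (20.6% of all genes tested), and 3 had the reverse. Il17a was among the 5, by CPM. Its TPM in replicates 1 to 4 were 8361, 7734, 8312 and 6741, and replicate 4 was the lowest on both scales.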

How the data were processed

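The authors deposited raw counts per gene, 1 table for each library. Per the file headers, featureCounts 1.4.6-p4 assigned read pairs to GENCODE mouse release 13 genes by their exons, with both mates aligned and strand option 2 (reverse). Reads that map to several places or overlap several genes are not counted by these settings. The input names in the headers carry the word star2. No version of an aligner is given in those sources. The build is mm10 per the labels. Those give total RNA as the assay, yet they link a protocol for poly(A) RNA. Symbols came from GENCODE mouse release 21, where 50376 of 50600 identifiers matched.

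TPM were derived here by dividing counts by the exonic length column of each file. The spread between libraries was tested with edgeR 4.0.16 (intercept alone, TMM, filterByExpr, quasi-dispersion over trend against the F distribution, upper tail, Benjamini-Hochberg over 12156 genes, threshold 0.05) and DESeq2 1.42.0 as an alternative. The procedure was run first on simulated data that held changes of known size, with no result given here. How large a spread must be to pass the threshold in these 4 libraries is therefore not stated, and a gene that did not pass may still vary. Within a library, pairs of members were compared as log2(TPM + 1) with a pseudocount of 1, which understates differences from low genes. No pair of libraries was alike within sampling noise (mean chi-square of 3.50 to 20.6 over 11775 genes), so all 4 were kept. Intervals (95%, exact) and the floor of 3 counts cover counting error only.

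The members, lists and tests were chosen with earlier results of these data known. The text names all members, all composite-site partners and the 3 highest genes of each other list, except the marker lists of other cell types. It also names genes of short lists at 0 counts and the gene that held most of a marker sum. The 3 genes nearest to each leading member, and genes below 1 TPM as exceptions, are named too. Alternatives left out each replicate and changed the length, the count filter, the normalization, the pseudocount and the TPM total. A planned gene of the lists is not reported here and was left out of their counts. Protein sequence was not used here, although the plan listed it, and coding DNA was compared in its place.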

Additional observations from a re-analysis of the deposited data

Results flagged for a closer look

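Among 19 sets of 4 values examined for a library far from the rest (the 10 members, 3 subfamily shares and 6 composite-site partners), 2 were singled out, and chance alone singles out about 1 in 20. Jund was lowest in replicate 3, at 476 TPM against 558 to 572 TPM in the others, a gap of 0.852 of the whole range. Fos was highest in replicate 2, at 14.4 TPM against 11.4 to 11.8 TPM, a gap of 0.868 of the range. Its counts were 292, 245, 78 and 236 in replicates 1 to 4. Exact Poisson intervals were computed for low counts only, here for replicate 3 (95%, 9.20 to 14.5 TPM), so none is given for the flagged library.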

How the results depend on the processing

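No paired analysis was possible because the series has 1 group. The number of genes past the spread threshold was 1 with all settings kept, 126 with no count filter, 5 with a mean count of at least 50, 103 as DESeq2 dispersion outliers, and 1 to 20 when a replicate was left out, with 20 without replicate 4. The number of members past it was 0, and 1 (Fosl2) with no filter, and 0 with each replicate left out. The number of pairs in the order of the means in every library was 44, 43 with no length correction, 43 with principal transcript lengths, and 44 to 45 when a replicate was left out, with 45 without replicate 3. Of 72 differences between neighbours in that order, 69 kept their direction. Many of these were fixed in advance. A pair with 1 order in all 4 libraries cannot reverse when a replicate is left out or the pseudocount is changed. With no length correction Batf over Fosl2 turned to -0.82 and Fosl1 over Fos to -0.011 log2 units, and with principal transcript lengths Jun over Batf3 turned to -0.033, each by the construction of the scale. The BATF share of the 10-gene sum was 17.5% ± 1.94 (SD, n = 4), 8.15% with no length correction and 16.7% to 18.2% when a replicate was left out. The FOS share was 4.13% ± 0.227, and 3.84% with an effective length, 14.0% with no length correction, 4.72% with principal transcript lengths and 4.03% to 4.19% when a replicate was left out. The JUN share kept within its spread of 78.3% ± 1.77 under the same alternatives. For the levels of the 10 members, 64 of 80 alternative values lay within the SD of the main mean. The other 16 all came with another length setting or no length correction. Leaving out a replicate cannot move a mean level or share beyond its SD, so those values lay within it by construction. With principal transcript lengths Junb, Jund and Batf had 1145, 380 and 272 TPM, and with an effective length Batf had 440 TPM. The principal lengths of Jun, Jund and Batf equal their exonic lengths (3189, 1668 and 955 bases). Their change under that setting came from the rescaled library totals. Principal lengths are from release 21, where Fosl1 has 1864 bases, against 1707 joined exonic bases in release 13. Levels below about 1 TPM rest on few counts, above all in replicate 3, the library with the fewest.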

Other observations

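Among the other bZIP genes, those with an unadjusted p under 0.05 in the edgeR spread test were Crem, Atf3 and Nfil3, named here after their values were seen. Crem, whose products include repressors at CRE sites, had 64.9, 67.4, 44.4 and 93.6 TPM in replicates 1 to 4. Atf3, a stress-induced partner of JUN, had 29.5, 35.8, 25.4 and 53.1 TPM. Nfil3, a repressor with a bZIP domain, had 50.6, 53.3, 44.0 and 76.1 TPM. All 3 had their highest level in replicate 4 and their lowest in replicate 3, as Fosl2 and Batf3 did, and none passed the adjusted threshold (edgeR, adjusted p of 0.435, 0.774 and 0.875).

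The orphan receptor genes Nr4a1, Nr4a2 and Nr4a3, immediate early genes named after their values were seen, shared that order of extremes. Nr4a1 had 278, 307, 198 and 372 TPM, Nr4a2 41.4, 38.6, 26.0 and 60.2 TPM, and Nr4a3 25.6, 24.6, 20.7 and 39.6 TPM. Fos, of the same class, did not, with its highest level in replicate 2. Of the other bZIP genes, Atf7, Bach2, Atf2, Maf and Atf4 had a CV below the 4.44% of Jun, from 2.81% for Atf7 to 3.85% for Atf4.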
